A study of Mus musculus with 16 samples.

Results

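Microglia were compared with neurons that had been sorted from the same mouse brains, across every protein-coding gene of a count table. Each of 4 male C57BL/6 wildtype mice (animals 2, 3, 4 and 5), which received no treatment, gave 1 microglia library, collected as CD11b+ cells, and 1 neuron library, collected as Thy1+ cells. These are 8 of the 16 libraries of the study; the other 8 are EAAT2+ astrocytes and an input sample of the same animals. In every sorted group cells positive for O1, an oligodendrocyte antigen, or for CD31, an endothelial protein, were gated out, and dead cells were left out by a viability stain. The libraries hold the 3' ends of polyadenylated RNA, so that counts come from transcript ends and not from whole transcripts. The table lists 22058 protein-coding genes, of which 15262 had a count in the 8 libraries and 9091 had enough counts in the 16 libraries to be tested. The labels give no age.

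Microglia are the resident macrophages of the brain. They patrol the tissue with motile processes, sense ATP released from damaged cells through purinergic receptors, take up debris and synapses tagged by complement, and digest them in lysosomes. Their identity depends on the transcription factor PU.1 and on signals through the receptors Csf1r and Tgfbr. Neurons are electrically excitable, carry long processes built on microtubules and neurofilaments, and release transmitter and peptides from vesicles. CD11b, the sort antigen of microglia, is the integrin chain encoded by Itgam and is also made by border macrophages, monocytes and neutrophils. Thy1, the sort antigen of neurons, is also made by T lymphocytes in mice.

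Total counts per library ran from 191236 to 1413564 in microglia and from 116761 to 393199 in neurons, and 10240 to 13429 genes had a count in a microglia library, against 9964 to 12935 in a neuron library. Mitochondrially encoded genes held 2.57% to 5.65% of the counts in microglia and 14.3% to 21.3% in neurons. Gh, the pituitary growth hormone gene, had between 110 and 250 counts in all 12 libraries made from animals 2, 3 and 4, although the totals of these libraries differ 24.08-fold. It had 530 counts in microglia of animal 5 and 19000 counts in neurons of animal 5. If every gene of the pool were spread over the libraries as Gh was, each library would hold a shared amount of each gene. Subtracting that amount, without letting a count turn negative, removed 7.29% to 47.41% of the counts of a microglia library. It removed 25.63% to 67.09% of those of a neuron library. Where the amount exceeded the counts of a gene only those counts were removed, so the shared amount itself would be larger than these percents. The largest share in each group falls on animal 2, whose libraries were the smallest of their groups. Counts of calls, list counts and the fold changes of named genes were also computed with that estimate subtracted.

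The marker genes followed the labels. Levels are given as CPM, counts per 1000000 counts of a library whose total was scaled by TMM. Cx3cr1, the receptor of the neuronal chemokine fractalkine, stood at 11895, 10017, 13177 and 13169 CPM in the microglia of animals 2 to 5, against 2112, 878, 2493 and 604 CPM in the neurons of the same animals. Ctss, the lysosomal protease cathepsin S, stood at 12929, 7470, 16218 and 13169 CPM in microglia, against 2288, 1110, 2908 and 746 CPM in neurons. For both genes every microglia library lay above every neuron library, yet no neuron library lacked either transcript. Snap25, a subunit of the membrane fusion machinery at synapses, was the reverse, at 67.2, 15.3, 30.4 and 18.3 CPM in microglia and 757, 671, 327 and 462 CPM in neurons. Syt1, the calcium sensor of vesicle release, stood at 103, 27.2, 13.2 and 24.9 CPM in microglia and 607, 775, 358 and 497 CPM in neurons. The microglia library of animal 2 was the highest of the microglia for both neuronal genes. Fitted log2 fold changes, always microglia minus neurons and given with their standard errors, were 3.00 ± 0.42 for Cx3cr1, 2.83 ± 0.43 for Ctss, -4.34 ± 0.41 for Snap25 and -4.13 ± 0.43 for Syt1, with adjusted p of 8.67e-07, 3.54e-06, 1.72e-09 and 8.36e-09 (edgeR's quasi-likelihood test, Benjamini-Hochberg adjustment over the 9091 genes). In libraries made from many cells, fewer cells of a type and less RNA per cell cannot be told apart.

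Of the genes of the sort reagents, Itgam and Thy1 moved with the gates. Itgam stood at 1781 ± 496 CPM in microglia and 251 ± 158 CPM in neurons (SD, n = 4 each), a log2 fold change of 2.86 ± 0.43 (edgeR adjusted p 2.29e-06). Thy1 stood at 51.7, 17, 9.12 and 7.32 CPM in microglia, against 194, 258, 270 and 263 CPM in neurons, a log2 fold change of -4.08 ± 0.42 (edgeR adjusted p 7.71e-09). Slc1a2, which encodes the astrocyte antigen EAAT2, was lower in microglia at 699 ± 394 CPM, against 1666 ± 856 CPM in neurons; its call (edgeR adjusted p 0.00971) was lost without the library of animal 4 in either group (log2 fold change -0.98 without that microglia library and -0.96 without that neuron library). Pecam1, which encodes CD31, did not pass the test (log2 fold change -0.41 ± 0.39, edgeR adjusted p 0.411). Ugt8a, the enzyme that makes the lipid carrying the O1 epitope, was lower in microglia, at 13 ± 5.96 CPM against 53.1 ± 11.2 CPM in neurons; subtraction of the shared estimate left no count of Ugt8a in either group.

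**Figure D1:**
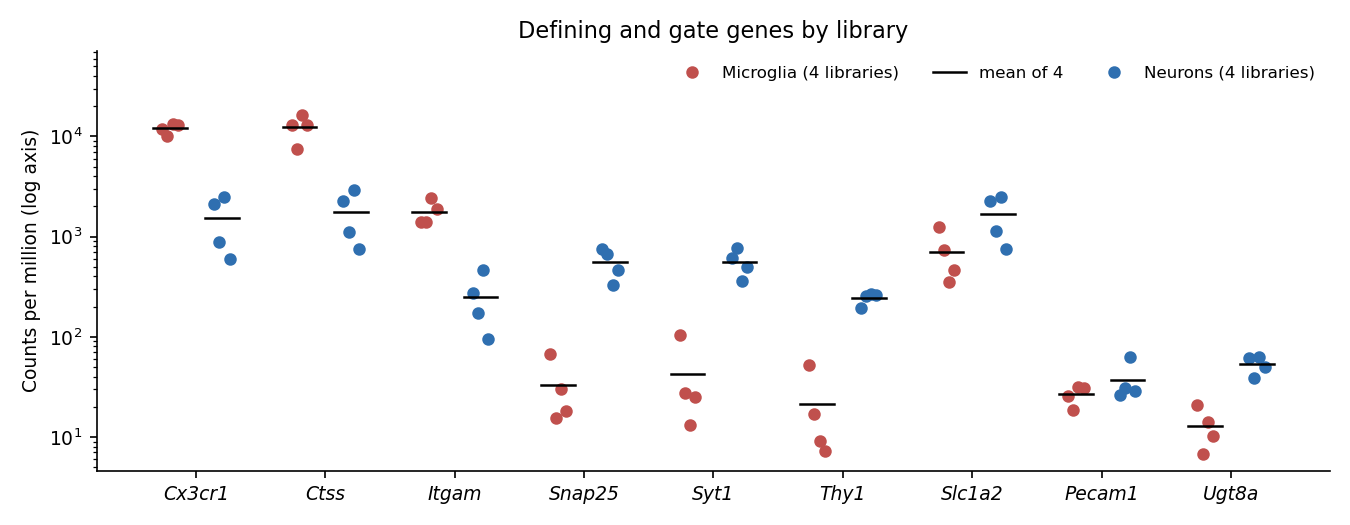
CPM on a log axis of the 2 microglia markers, Itgam, the 2 neuron markers, Thy1 and the genes of the EAAT2, CD31 and O1 antigens; each point is 1 library, left in each pair microglia and right neurons, and the bar is the mean of 4. The libraries of the groups are apart for Cx3cr1, Ctss, Itgam, Snap25, Syt1, Thy1 and Ugt8a, and overlap for Slc1a2 and Pecam1.

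Across the table, 4051 of the 9091 genes tested (44.6%) passed an adjusted p of 0.05, 1834 higher in microglia (20.2%) and 2217 lower in microglia (24.4%). The 4 microglia libraries did not overlap the 4 neuron libraries for 2801 genes (30.8%), 1421 with microglia above and 1380 with microglia below. The median log2 fold change over all genes tested was -0.03, with quartiles of -1.06 and 0.8. Large differences lay more often on the neuronal side: 661 genes were called at least 4-fold higher in microglia and 1258 at least 4-fold lower, and at 16-fold or more the counts were 38 higher and 259 lower. A test against a 2-fold change kept 808 genes as higher and 1308 as lower. Thinning every library to the smallest total left 833 higher and 850 lower of 3812 genes tested, and subtracting the shared estimate left 1215 higher and 1600 lower of 8538.

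**Figure D2:**
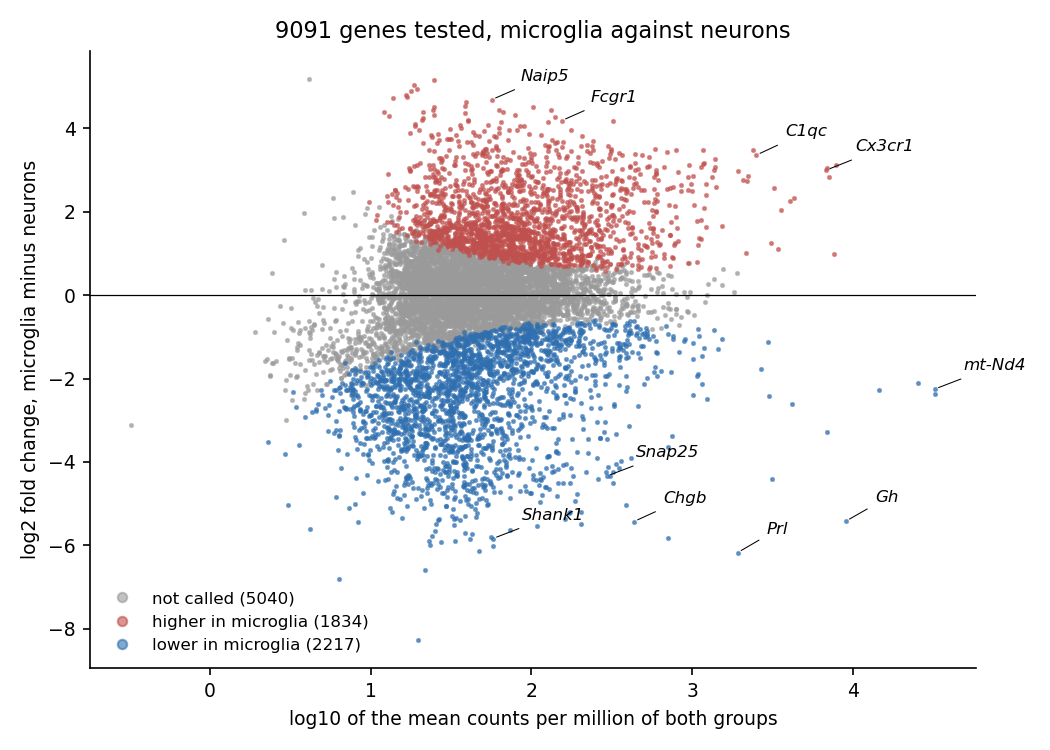
Log2 fold change (microglia minus neurons) of the 9091 genes tested against the log10 of their mean CPM over both groups; red points are the 1834 genes called higher in microglia, blue the 2217 called lower and grey those not called. The blue cloud reaches farther from 0 than the red one, and Gh and Prl stand alone at the right of the low values.

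The genes with the largest increases in microglia, taken where microglia averaged 50 CPM or more and libraries did not overlap, were Naip5, a sensor of bacterial flagellin, Cd14, a co-receptor for lipopolysaccharide, Tlr13, a receptor of bacterial ribosomal RNA, Fcgr1, the high-affinity receptor for IgG, Irf5, a transcription factor acting below Toll-like receptors, Cysltr1, a receptor of cysteinyl leukotrienes, Ltc4s, the enzyme that makes leukotriene C4, Gpr84, a receptor of medium-chain fatty acids, Pik3r6, a regulatory subunit of phosphoinositide 3-kinase gamma, Kcnk6, a leak potassium channel, and Col27a1 and Crybb1, a collagen and a crystallin. Their means ran from 72.3 to 288 CPM in microglia and from 3.24 to 20.6 CPM in neurons. Fcgr1 stood at 140, 238, 446 and 329 CPM in microglia, against 44, 10.3, 20.8 and 7.1 CPM in neurons (log2 fold change 4.18 ± 0.47, edgeR adjusted p 2.63e-08). Cd14 stood at 160, 132, 304 and 176 CPM in microglia, against 17.6, 5.17, 15.6 and 3.55 CPM in neurons (log2 fold change 4.52 ± 0.50, edgeR adjusted p 2.29e-08). Each microglia library of both genes lay well above the highest neuron library. Kcnk6 (log2 fold change 4.43 ± 0.45, edgeR adjusted p 4.83e-09) stood at 103, 255, 355 and 307 CPM in microglia, against 0, 15.5, 15.6 and 10.7 CPM in neurons. Pik3r6, Cysltr1 and Gpr84 had only 3 counts in all neuron libraries together, so their ratio of pooled counts per total is given with its exact 95% interval, which covers counting error only: 27.9 (9.44 to 136) for Pik3r6 from 272 counts in microglia, 24.8 (8.39 to 121) for Cysltr1 from 242, and 19.4 (6.53 to 94.8) for Gpr84 from 189. With few neuron counts, the log2 fold change of Naip5 (4.68) was 5.39 without the neuron library of animal 4, that of Tlr13 (4.44) was 5.04 without that of animal 2, and that of Ltc4s (4.39) was 5.22 without that of animal 3.

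Genes of complement, the opsonin system that microglia supply in the brain, were among the most abundant of those that rose. C1qc stood at 5172, 2886, 6082 and 4024 CPM in microglia, against 537, 258, 779 and 227 CPM in neurons (log2 fold change 3.36 ± 0.41, edgeR adjusted p 1.11e-07). C1qa, which encodes another chain of the same protein, stood at 4382 ± 301 CPM in microglia and 399 ± 255 CPM in neurons, and C1qb at 1049 ± 375 CPM in microglia and 146 ± 68.4 CPM in neurons (SD, n = 4). Of the complement list, 10 of 16 members were tested and 9 were higher in microglia, with a median of 3.14; the remaining one, Cd93, stood at 47.7 ± 17.2 CPM in microglia and 52 ± 17 CPM in neurons. The lists named here are described by counts and by the median log2 fold change of their tested members, to be read against the median of -0.03 and the 20.2% and 24.4% of all tested genes called higher and lower. The filter used all 16 libraries, so a member with few counts in both microglia and neurons could be tested through astrocytes or input. Entpd2, with 11 counts in microglia, 14 in neurons and a mean of 147 CPM in astrocytes, was tested. A member that had enough counts in microglia but not in neurons, or the reverse, had to differ. Members named because they went against the rest of their list, and Spi1, Trem2, Atf3, Rbfox3, Ptbp1, Cd200, Cd200r1, Sirpa, Kcnk13 and Adora3, were chosen after their values were seen.

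Promoters of Ctss and C1qc carry the PU.1 motif searched, GAGGAAGT, and are shown for that, since the factor that binds it defines the myeloid lineage. Windows run from 250 bases before to 50 bases after the first listed gene start, 5′ to 3′ on the strand of the gene, from RefSeq on GRCm38.p6, with the motif or its reverse complement in capitals. The Ctss window is chr3:95526536-95526835 on the plus strand and the C1qc window is chr4:136892865-136893164 on the minus strand.
Ctss: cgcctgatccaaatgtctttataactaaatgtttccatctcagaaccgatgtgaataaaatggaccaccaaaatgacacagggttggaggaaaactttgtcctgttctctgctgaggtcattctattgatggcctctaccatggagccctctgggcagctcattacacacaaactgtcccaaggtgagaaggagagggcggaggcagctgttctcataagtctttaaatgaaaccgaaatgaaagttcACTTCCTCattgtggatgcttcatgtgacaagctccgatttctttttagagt
C1qc: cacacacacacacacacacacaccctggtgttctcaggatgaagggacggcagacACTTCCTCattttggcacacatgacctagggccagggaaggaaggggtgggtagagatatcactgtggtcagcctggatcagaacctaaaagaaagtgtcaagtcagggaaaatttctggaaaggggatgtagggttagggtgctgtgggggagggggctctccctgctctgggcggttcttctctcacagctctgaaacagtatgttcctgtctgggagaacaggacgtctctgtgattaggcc
Of the genes called at least 4-fold higher in microglia, 42 of 516 with a promoter in the table (8.14%) hold GAGGAAGT on either strand. Of those called at least 4-fold lower, 10 of 888 (1.13%) hold it, against 3.05% of all tested genes and 3.28% of all 27025 promoters of the table. The shorter ETS core GGAAGT, which lies inside the PU.1 motif, was in 35.3% of the higher and 15% of the lower set, and in 28.1% of tested genes. Median GC content of the windows was 58.8% in the higher set, 62.3% in the lower set and 62% over tested genes. None of the 8 windows found for the genes with the largest increases holds GAGGAAGT, and 5 hold GGAAGT. A match is a run of letters and not a shown binding site.

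Spi1, which encodes PU.1, stood at 672, 357, 355 and 410 CPM in microglia, against 44, 25.8, 57.1 and 21.3 CPM in neurons (log2 fold change 3.69 ± 0.39, edgeR adjusted p 9.63e-09). All 17 tested members of the 18 macrophage and microglia transcription factors listed were higher in microglia, with fold changes of 0.94 to 4.32 and a median of 2.58. Sall1, a repressor that among brain cells marks microglia, stood at 998 ± 153 CPM in microglia and 150 ± 82.5 CPM in neurons (SD, n = 4). Maf and Mef2a rose by 2.58 ± 0.35 and 2.30 ± 0.31. Among 14 tested neuronal factors 11 were lower in microglia and the median was -2.72: Myt1l, a repressor of non-neuronal genes, stood at 20 ± 8.82 CPM in microglia and 295 ± 70.3 CPM in neurons, and Zic1, a cerebellar factor, at 54.7 ± 27.6 CPM in microglia and 534 ± 196 CPM in neurons. The exception was Mef2c, which acts in both lineages and was higher in microglia, at 1448, 1341, 1115 and 1097 CPM against 334, 336, 415 and 281 CPM in neurons (log2 fold change 1.87 ± 0.28, edgeR adjusted p 1.85e-06). Foxp1 and Etv1 were not called, with fold changes of -0.39 ± 0.29 and 0.64 ± 0.32; Etv1 was called without the neuron library of animal 3 (1.16).

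Most receptors listed for the microglial surface rose. All 17 tested of 20 Fc receptors and genes of signalling through ITAM adaptors were higher in microglia (median 3.17, lowest 2.3). Tyrobp, the adaptor of Trem2, stood at 672, 594, 1318 and 1244 CPM in microglia, against 106, 114, 171 and 63.9 CPM in neurons (log2 fold change 3.10 ± 0.35, edgeR adjusted p 3.33e-08). Trem2 itself, a lipid receptor, stood at 437 ± 72.7 CPM in microglia and 40.7 ± 23.9 CPM in neurons. Siglech, a sialic acid binding lectin, and Cd33, an inhibitory one, rose by 3.49 ± 0.41 and 3.35 ± 0.39. Of 14 tested Toll-like receptors and adaptors, 13 were higher, with a median of 3.36. Among them Ly86 and Cd180, which form a receptor complex with each other, rose by 3.58 ± 0.42 and 2.65 ± 0.49, and Unc93b1, which carries nucleic acid sensing Toll-like receptors to endosomes, by 2.98 ± 0.38. The adaptor Ticam1 did not pass the test (1.34 ± 0.56, edgeR adjusted p 0.0528) but was called without the microglia library of animal 4 (1.57, adjusted p 0.0333).

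Purinergic genes were found on both sides. P2ry12, the ADP receptor that steers microglial processes, stood at 2689, 2207, 5575 and 3878 CPM in microglia, against 871, 362, 727 and 195 CPM in neurons (log2 fold change 2.77 ± 0.43, edgeR adjusted p 4.08e-06). P2ry13, Gpr34 and the ATP-degrading enzyme Entpd1 rose by 3.49 ± 0.45, 2.96 ± 0.42 and 2.80 ± 0.36, and 8 of the 11 tested members were higher. The tested adenosine receptors divided: Adora3 was higher in microglia (4.01 ± 0.54, edgeR adjusted p 4.07e-07), at 72.4, 124, 142 and 132 CPM against 8.8, 0, 15.6 and 10.7 CPM in neurons, and its fold was 3.36 without the neuron library of animal 3. Adora1 (-3.66 ± 0.42) and Adora2a, which is dense in the striatum (-4.88 ± 0.63), were lower in microglia, as was the ectonucleotidase Entpd2. Adora2a had 7 counts in all microglia together, and its fold was -6.28 without the microglia library of animal 3 and -4.10 without that of animal 5. Entpd2 (-2.03, edgeR adjusted p 0.0138) lost its call without the neuron library of animal 2 (-1.50, adjusted p 0.0868) or the microglia library of animal 5 (-1.68, adjusted p 0.0625).

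Receptors through which microglia are maintained rose as well. Csf1r, the receptor for colony-stimulating factor 1 and interleukin 34, stood at 3982, 3396, 4460 and 3658 CPM in microglia, against 854, 256, 831 and 256 CPM in neurons (log2 fold change 2.85 ± 0.39, edgeR adjusted p 6.63e-07). Tgfbr1, the kinase chain of the transforming growth factor beta receptor, stood at 2123 ± 532 CPM in microglia and 247 ± 124 CPM in neurons, and Tgfbr2 at 509 ± 199 CPM in microglia and 120 ± 76.5 CPM in neurons (SD, n = 4). Of 15 tested members of this list 12 were higher, with a median of 1.81, and the ligand Tgfb2 was lower (-2.05 ± 0.37). Chemokines and cytokines had 11 of 15 tested members higher and a median of 1.81; Ccl4, a chemokine for lymphocytes and monocytes, rose by 2.37 ± 0.42 and Pdgfb, a growth factor for pericytes, by 3.04 ± 0.41. Cxcl12, which guides migrating neurons and leukocytes, was lower in microglia (-2.26 ± 0.41). Il34 and Spp1 were not called, at -1.56 ± 0.89 and 0.63 ± 0.64, each with few counts; without the neuron library of animal 3, Spp1 was called at 3.52.

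Ligands of microglial receptors lay on both sides. Csf1, a ligand of Csf1r, and Tgfb1, a ligand of the transforming growth factor beta receptor, were higher in microglia. Their log2 fold changes were 1.81 ± 0.57 and 1.88 ± 0.69 (edgeR adjusted p 0.0102 and 0.0267), with libraries that overlapped. Both were added after their values were seen and are not among the named genes counted below. Cx3cl1, the fractalkine that binds Cx3cr1, stood at 31, 8.49, 9.12 and 9.51 CPM in microglia, against 202, 336, 145 and 167 CPM in neurons (log2 fold change -4.26 ± 0.40, edgeR adjusted p 1.56e-09). Thus the ligand and its receptor lay on opposite sides, with no overlap of libraries for either gene. The pair of Cd200, an inhibitory ligand, and its receptor Cd200r1 was also examined. Cd200 stood at 36.2, 10.2, 5.07 and 3.66 CPM in microglia, against 167, 51.7, 31.2 and 56.8 CPM in neurons (log2 fold change -3.00 ± 0.60, edgeR adjusted p 0.000123). Cd200r1 was called higher in microglia (1.43 ± 0.59, edgeR adjusted p 0.0472), with 15.5, 32.3, 43.6 and 40.2 CPM in microglia and 44, 7.75, 10.4 and 7.1 CPM in neurons. That call was lost with animal as a block (1.39, adjusted p 0.0853) and without any one of the microglia libraries of animals 3, 4 and 5 or the neuron libraries of animals 3, 4 and 5 (folds of 1.16 to 1.48, adjusted p 0.0605 to 0.171), while without the neuron library of animal 2 the fold was 2.14. Sirpa, the receptor of the ligand CD47, rose by 2.52 ± 0.32.

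Digestion and antigen presentation were the other large microglial groups. Of 30 tested lysosomal enzymes and membrane proteins 29 were higher in microglia, with a median of 2.13. Ctsd, an aspartic protease, stood at 2948, 3565, 4359 and 4316 CPM in microglia, against 581, 413, 935 and 355 CPM in neurons (log2 fold change 2.74 ± 0.30, edgeR adjusted p 1.91e-08), and Lgmn, an asparagine-specific protease, stood at 3379 ± 842 CPM in microglia and 441 ± 232 CPM in neurons. Cd63, a membrane protein of late endosomes, did not pass the test, at 1552 ± 168 CPM in microglia and 1187 ± 423 CPM in neurons. The 6 tested genes of MHC class II presentation were all higher, with H2-Aa, H2-Ab1 and H2-DMb1 at 2.19 ± 0.45, 2.78 ± 0.40 and 3.18 ± 0.36, and H2-Eb1 at 2.71 ± 0.55 (3.43 without the neuron library of animal 2). MHC class I did not follow: of 9 tested members 3 were higher and 1 was lower, and the median was 0.64. The light chain B2m stood at 2482, 1868, 3953 and 3292 CPM in microglia, against 1320, 1472, 2129 and 817 CPM in neurons (log2 fold change 1.02 ± 0.34, edgeR adjusted p 0.0165), a call lost without animal 5 (0.76, adjusted p 0.115) and with microglia and neurons fitted alone (0.83). The heavy chain H2-K1 was lower in microglia, at 434, 475, 750 and 593 CPM against 880, 1291, 1610 and 1066 CPM in neurons (-1.10 ± 0.26, edgeR adjusted p 0.000816), and H2-D1 was not called (-0.41 ± 0.30). Class I genes are close copies of each other, and how reads shared between them were counted is not given in the sources used here. T and NK cell transcripts summed to 85.68 ± 53.56 CPM in microglia and 2055 ± 725.4 CPM in neurons, the same direction as H2-K1; their part in its level was not tested.

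Actin remodelling genes of leukocytes rose by less. Of 19 tested members 12 were higher, none was lower, and the median was 1.19. Nckap1l, the blood cell subunit of the WAVE complex, rose by 2.78 ± 0.37, Arpc1b, a subunit of the actin branching complex Arp2/3, by 1.19 ± 0.34, and Cotl1, a coactosin, by 1.17 ± 0.25. Tmsb4x, an actin monomer buffer and one of the most abundant transcripts, stood at 7240, 8319, 15204 and 9511 CPM in microglia, against 5896, 5940, 6751 and 1776 CPM in neurons (log2 fold change 0.99 ± 0.38, edgeR adjusted p 0.0332). The Tmsb4x call was lost without the neuron library of animal 5 (0.74, adjusted p 0.0791) or the microglia library of animal 4 (0.76, adjusted p 0.106), and subtracting the shared estimate left 8 of the 19 members higher.

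**Figure D3:**
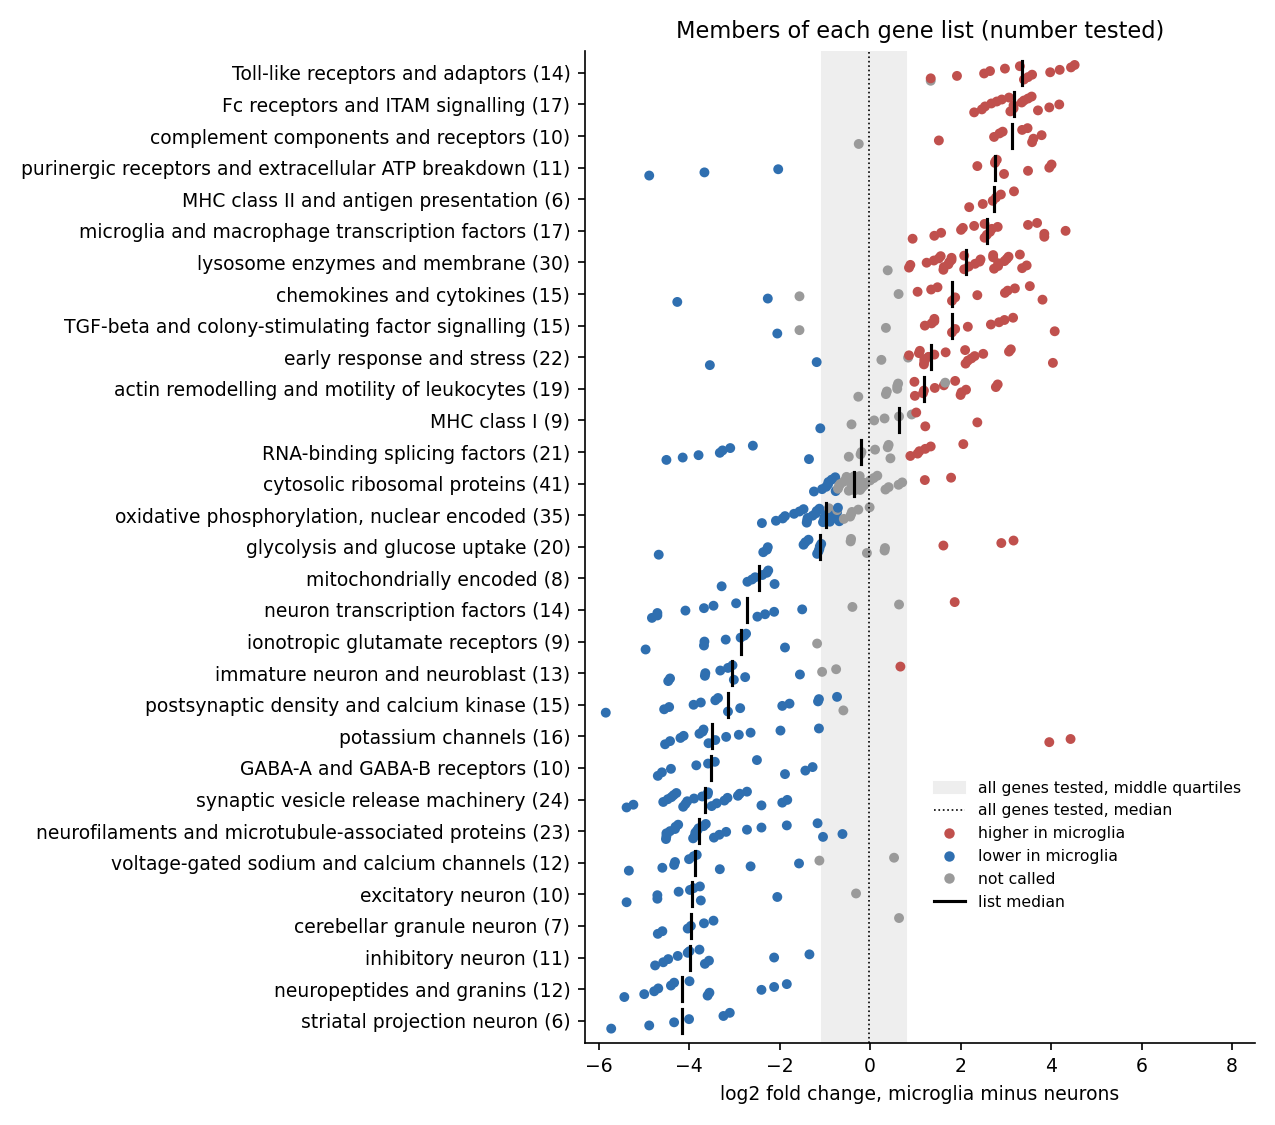
Log2 fold change (microglia minus neurons) of each tested member of the lists of pathways and neuron classes, with list medians as black bars; red members were called higher in microglia, blue lower and grey were not called, and the grey band and dotted line give the quartiles and median of all tested genes. Medians run from 3.36 for Toll-like receptors to -4.16 for striatal and neuropeptide genes, with ribosomal and splicing genes near 0.

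On the neuronal side, the largest decreases in microglia belonged to genes of synapses and excitability and, beside them, to genes of lymphocytes and the pituitary. The neuronal ones were St8sia3 and Sult4a1, a sialyltransferase and a sulfotransferase of the brain, Shank1, a scaffold of the postsynaptic density, Icam5, an adhesion molecule of dendrites, Clstn3, a synaptic organiser, and Disp2. St8sia3 stood at 0, 0, 2.03 and 1.46 CPM in microglia, against 52.8, 95.6, 93.5 and 135 CPM in neurons (log2 fold change -6.14 ± 0.56, edgeR adjusted p 1.07e-09). Clstn3 stood at 10.3, 5.09, 5.07 and 2.93 CPM in microglia, against 70.4, 253, 177 and 341 CPM in neurons (log2 fold change -5.53 ± 0.47, edgeR adjusted p 3.79e-10), and was -4.89 without animal 5. Both were low in the microglia of every animal. The rule that picked the genes with the largest decreases required libraries that did not overlap. Shank1 stood at 1.45 ± 2.44 CPM in microglia and 113 ± 78.3 CPM in neurons; its 6 microglial counts came mostly from animal 4, and its fold of -5.84 was -7.64 without that library.

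All 24 tested genes of the vesicle release machinery, of 30 listed, were lower in microglia, with fold changes of -5.38 to -1.83 and a median of -3.65. Beyond Snap25 and Syt1, Sv2a, a vesicle membrane protein, stood at 41.4, 40.7, 36.5 and 42.4 CPM in microglia, against 396, 362, 353 and 391 CPM in neurons (log2 fold change -3.22 ± 0.27, edgeR adjusted p 3.79e-10). Its level hardly varied between animals within either group. Syt11, a synaptotagmin that does not bind calcium, fell by less (-1.94 ± 0.27), with 162 ± 41.6 CPM in microglia and 611 ± 142 CPM in neurons. At the postsynaptic side 14 of 15 tested genes were lower (median -3.14). Dlgap1, a scaffold protein, and Camk2n1, an inhibitor of calcium/calmodulin kinase II, fell by 3.42 ± 0.36 and 1.94 ± 0.30 on the log2 scale. Ppp3ca, the catalytic chain of the phosphatase calcineurin, which leukocytes also use, had 627 ± 21.3 CPM in microglia and 1396 ± 449 CPM in neurons (-1.15 ± 0.27, edgeR adjusted p 0.000767). Dlg3 was not called (-0.59 ± 0.38). Syt11 and Dlgap1 had higher means in astrocytes (1600 and 635 CPM) than in neurons (611 and 482 CPM). Camk2n1 averaged 772 CPM in astrocytes and 949 CPM in neurons. Sums of the vesicle release and postsynaptic lists were higher in neurons (5408 and 5195 CPM) than in astrocytes (2530 and 3000 CPM).

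Receptors and channels of excitability were lower in microglia with a pair of exceptions. Of the ionotropic glutamate receptor genes 8 of 9 tested were lower (median -2.86), led by Grin2b, an NMDA receptor subunit, at 0, 10.2, 8.11 and 5.85 CPM in microglia and 229, 336, 244 and 74.6 CPM in neurons (log2 fold change -4.96 ± 0.45, edgeR adjusted p 9.71e-10). The AMPA receptor subunits Gria1 and Gria2 fell by 2.74 ± 0.38 and 2.86 ± 0.37. All 10 tested GABA receptor genes were lower (median -3.5), among them Gabbr1, a GABA-B subunit at 124 ± 16.6 CPM in microglia and 302 ± 46.2 CPM in neurons. Of 12 tested sodium and calcium channel genes 10 were lower (median -3.86), among them Scn2a1 (-4.33 ± 0.51), Scn8a (-3.83 ± 0.50) and Cacnb4 (-4.59 ± 0.45). Of 16 tested potassium channel genes 14 were lower and 2 were higher. The higher ones were Kcnk6, given above, and Kcnk13, the leak channel that sets the resting potential of microglia, at 191, 95.1, 142 and 117 CPM in microglia and 8.8, 5.17, 20.8 and 3.55 CPM in neurons (3.96 ± 0.50, edgeR adjusted p 1.41e-07; 4.68 without the neuron library of animal 4). Another leak channel of the same family, Kcnk2, was lower in microglia, at 23.3 ± 13.4 CPM in microglia and 262 ± 164 CPM in neurons (-3.77 ± 0.41). Kcna2, an axonal channel, fell by 3.18 ± 0.34. Astrocyte libraries had higher mean sums than neuron libraries for glutamate receptors, GABA receptors and potassium channels, of 1365, 1926 and 2204 CPM. The corresponding neuron means were 970.1, 1010 and 1591 CPM. These lists were thus not particular to the neuron libraries. The sodium and calcium channel list went the other way (1018 CPM for neurons, 272.8 CPM for astrocytes).

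The neuron libraries held transcripts of several neuron classes. Slc17a7, the vesicular glutamate transporter of cortical and cerebellar excitatory neurons, stood at 20.7, 6.79, 8.11 and 4.39 CPM in microglia, against 282, 225, 364 and 391 CPM in neurons (log2 fold change -5.38 ± 0.42, edgeR adjusted p 1.06e-10). Nrgn and Camk2a, both calcium/calmodulin signalling genes of the forebrain, fell by 3.90 ± 0.37 and 3.74 ± 0.42, and 9 of 10 tested excitatory genes were lower. Slc32a1, the transporter that loads GABA into vesicles, stood at 25.9, 5.09, 7.1 and 4.39 CPM in microglia, against 158, 189, 156 and 188 CPM in neurons (log2 fold change -4.57 ± 0.43, edgeR adjusted p 1.56e-09). Gad1, the GABA-making enzyme, fell by 3.56 ± 0.39, and the 11 tested inhibitory genes were all lower. Striatal projection neurons were represented by Penk, the enkephalin precursor, at 22.2 ± 19.7 CPM in microglia and 338 ± 144 CPM in neurons. Ppp1r1b, the dopamine-regulated phosphatase inhibitor DARPP-32, stood at 11.1 ± 8.25 CPM in microglia and 75.5 ± 23.6 CPM in neurons. Ppp1r1b was not particular to the neuron libraries, with 71 ± 18.2 CPM in astrocytes and 181 ± 33.5 CPM in input. Cerebellar granule neurons were represented by Cbln1 and Cbln3, secreted synapse organisers, which fell by 4.59 ± 0.51 and 3.96 ± 0.50. The lists of these classes had medians of -3.94 for excitatory, -3.99 for inhibitory, -4.16 for striatal and -3.96 for granule neurons. The inhibitory list summed to 1302 ± 303.4 CPM in neurons and 1935 ± 363.7 CPM in astrocytes. Sums of the excitatory, striatal and granule lists were higher in neurons (1901, 776.1 and 960.1 CPM) than in astrocytes (933.2, 148.5 and 355.7 CPM). Among genes of immature neurons 10 of 13 tested were lower (median -3.04), including Tubb3, a neuronal tubulin (-4.42 ± 0.38), and Nrep (-3.04 ± 0.26). Sox4, which many cell types use, was higher in microglia (0.67 ± 0.25, edgeR adjusted p 0.029), a call lost when libraries were scaled by RLE in place of TMM (0.59, adjusted p 0.055), without animal 5 (0.75, adjusted p 0.0613), and without the microglia library of animal 4 (0.59) or the neuron library of animal 2 (0.60) or animal 4 (0.58). Lmo4 was not called (-0.31 ± 0.25).

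Genes of the neuronal cytoskeleton and of peptide secretion were lower in microglia. All 23 tested genes of neurofilaments, tubulins and microtubule-associated proteins were lower in microglia, with a median of -3.79. Map1b, which stabilises growing axons, stood at 145, 35.7, 35.5 and 34.4 CPM in microglia, against 352, 904, 883 and 924 CPM in neurons (log2 fold change -3.91 ± 0.39, edgeR adjusted p 3.89e-09). The libraries of animal 2 were the highest microglia and the lowest neuron library for this gene. Mapt, the tau protein, fell by 3.33 ± 0.33 and Tuba1a, an alpha tubulin, fell by 1.84 ± 0.28. All 12 tested neuropeptide and granin genes were lower, with a median of -4.16. Scg2, a granin of dense-core vesicles, stood at 20.7, 15.3, 14.2 and 9.51 CPM in microglia, against 422, 362, 187 and 497 CPM in neurons (log2 fold change -4.77 ± 0.44, edgeR adjusted p 1.21e-09). Chgb, another granin, stood at 31, 22.1, 9.12 and 24.1 CPM in microglia, against 282, 387, 114 and 2593 CPM in neurons; its fold of -5.43 ± 0.68 was -3.71 without the neuron library of animal 5. Cpe, the carboxypeptidase that trims peptide precursors, fell by 2.40 ± 0.35. The neuropeptide and granin list had a higher mean sum in astrocytes (6193 CPM) than in neurons (4183 CPM). The cytoskeleton list was the reverse (4837 CPM for astrocytes, 7488 CPM for neurons).

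Both granin promoters hold the cyclic AMP response element TGACGTCA, for which granin genes are known, and are shown with it in capitals, from the same RefSeq table. The Scg2 window is chr1:79439977-79440276 on the minus strand and the Chgb window is chr2:132781392-132781691 on the plus strand.
Scg2: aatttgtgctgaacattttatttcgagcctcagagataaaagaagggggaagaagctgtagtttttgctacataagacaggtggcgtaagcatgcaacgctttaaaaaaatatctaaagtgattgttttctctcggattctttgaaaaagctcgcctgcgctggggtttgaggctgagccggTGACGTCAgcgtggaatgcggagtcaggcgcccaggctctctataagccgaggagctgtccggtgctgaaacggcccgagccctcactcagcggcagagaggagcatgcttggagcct
Chgb: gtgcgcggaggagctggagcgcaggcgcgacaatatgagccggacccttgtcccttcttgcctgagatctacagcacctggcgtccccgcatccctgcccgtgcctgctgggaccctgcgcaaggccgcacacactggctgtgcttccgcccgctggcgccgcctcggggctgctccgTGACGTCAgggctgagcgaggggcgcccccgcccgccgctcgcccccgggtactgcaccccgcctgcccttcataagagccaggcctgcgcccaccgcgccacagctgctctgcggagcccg
The element is a palindrome, so both strands give the same match. It was in 1.16% of the genes called at least 4-fold higher in microglia, in 1.8% of those at least 4-fold lower and in 3.25% of all tested genes. The letters TCAGCACC, part of the element bound by the neuronal repressor REST, were in 1.94% of the higher set, 2.48% of the lower set and 1.58% of tested genes. A TATAAA was in 10.1% of the higher set, 7.77% of the lower set and 6.71% of tested genes.

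Related genes often divided between the cell types. Of 25 pairs made of a widely used or leukocyte member and a neuronal member of one family, both members were tested in 21. In 9 of them the first was called higher and the second lower in microglia; in none was it the other way, and in 2 (Kif5b and Kif5a, Map4 and Map2) both were lower. The pairs had been picked for such contrasts, so their direction is a description. Some second members were not particular to the neuron libraries. Gnao1 averaged 941 CPM in astrocytes and 399 CPM in neurons. Nckap1 (143 and 150 CPM), Map2 (344 and 405 CPM) and Hk1 (129 and 119 CPM) were not called between astrocytes and neurons. Others, such as Snap25 (71 and 554 CPM), Cyfip2 (59 and 489 CPM) and Kif5a (23.7 and 277 CPM), were higher in neurons. Snap23, the membrane fusion protein of non-neuronal cells, stood at 114, 52.6, 75 and 73.2 CPM in microglia, against 44, 20.7, 26 and 24.9 CPM in neurons (log2 fold change 1.51 ± 0.41, edgeR adjusted p 0.00296), opposite to Snap25. The log2 ratio of Snap23 to Snap25 within a library, with 1 CPM added to each, was 0.75, 1.72, 1.27 and 1.94 in microglia and -4.07, -4.96, -3.61 and -4.16 in neurons. Cyfip1 and Cyfip2, alternative subunits of the WAVE complex, had log2 fold changes of 2.53 ± 0.29 and -3.43 ± 0.31, and Nckap1, the partner of Nckap1l in other tissues, had -3.18 ± 0.32. Hence both pairs examined from that actin regulator divided in the same way.

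Among signalling proteins, the inhibitory G protein chain Gnai2 (1.15 ± 0.27) was opposite to Gnao1 (-2.71 ± 0.33), the protein kinase C isoform Prkcd (2.90 ± 0.33) to Prkce (-2.20 ± 0.31), and the phosphatase Ptpn6 (2.47 ± 0.40; 3.06 without the neuron library of animal 2) to Ptpn11 (-1.0 ± 0.35, edgeR adjusted p 0.0219). The Ptpn11 call was lost when counts were thinned (-0.75, adjusted p 0.23) and without the microglia library of animal 3 (-0.92) or the neuron library of animal 3 (-0.90) or animal 4 (-0.77). Dnm2, the dynamin of all cells, rose by 1.88 ± 0.39, while Dnm1, the synaptic one, had 3 counts in all microglia and 26 in all neurons, a pooled ratio of 28.2 in favour of neurons (exact 95% interval 8.64 to 145). Of all 25 pairs, the within-library ratios of microglia and neurons did not overlap in 21. Kif5a, a neuronal motor protein, fell by 4.51 ± 0.42 while Kif5b fell by 0.80 ± 0.25 (-0.73 and not called without animal 5), so that their ratio was also apart between the cell types although both were lower in microglia.

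**Figure D4:**
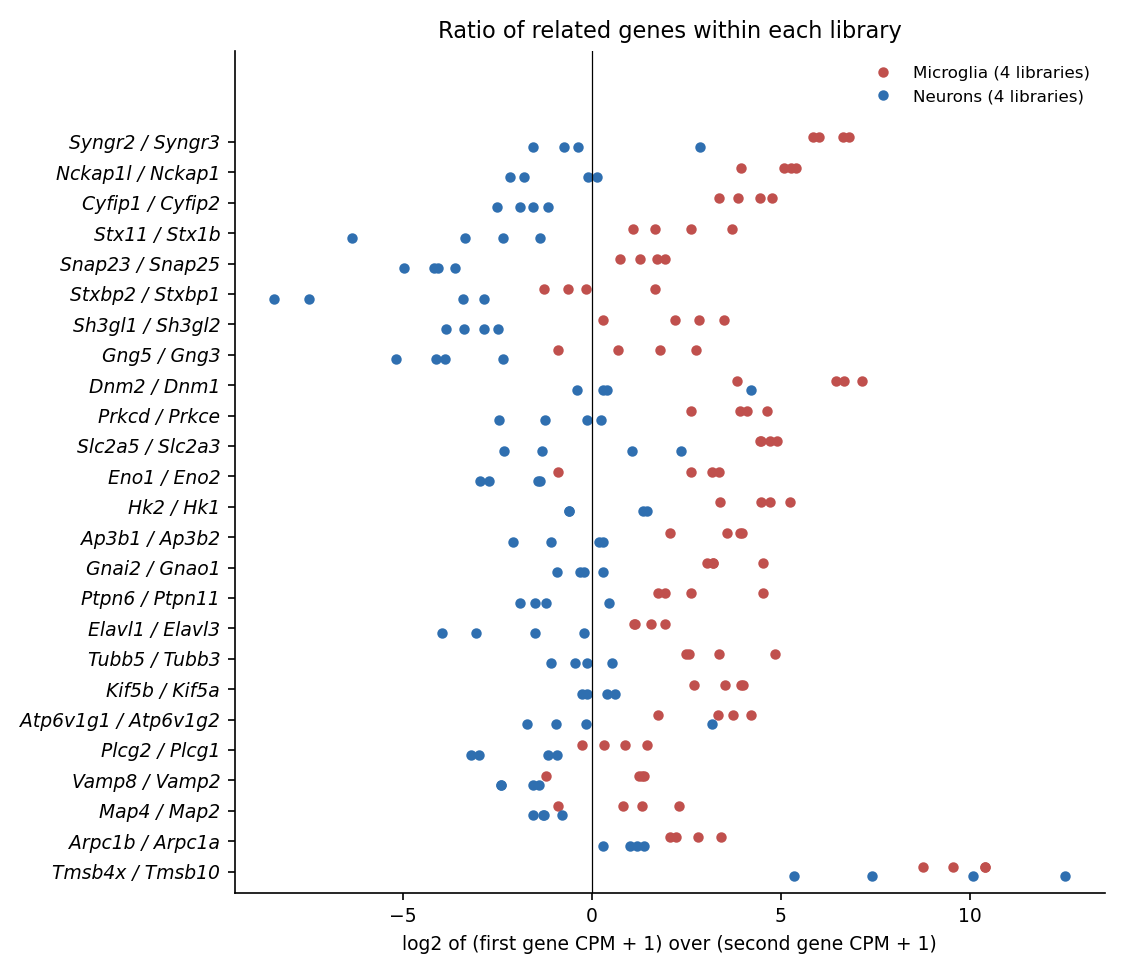
Log2 ratio of the first to the second gene of each of the 25 pairs within each library, with 1 CPM added to both; red points, above, are the 4 microglia libraries and blue points, below, the 4 neuron libraries. The ratios do not overlap in 21 pairs, for Snap23 over Snap25 at 0.75 to 1.94 in microglia and -4.96 to -3.61 in neurons.

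Genes of mitochondrial energy metabolism were mostly lower in microglia. The 8 tested mitochondrially encoded genes were all lower in microglia, with a median of -2.46. mt-Nd4, a subunit of complex I, stood at 13964, 7810, 13177 and 9511 CPM in microglia, against 51921, 59400, 50890 and 49727 CPM in neurons (log2 fold change -2.25 ± 0.36, edgeR adjusted p 6.44e-06). Nuclear genes of oxidative phosphorylation fell by less: 27 of 35 were lower and none higher, with a median of -0.98. Cox6c, a subunit of cytochrome oxidase, stood at 442 ± 87.4 CPM in microglia and 1702 ± 273 CPM in neurons (-1.93 ± 0.26, edgeR adjusted p 5.14e-07), and Atp5g3, a subunit of ATP synthase, at 985 ± 440 CPM in microglia and 1757 ± 241 CPM in neurons, a call (-0.84, edgeR adjusted p 0.0193) lost without any one of the microglia libraries of animals 3, 4 and 5 or the neuron library of animal 2 (folds of -0.79 to -0.64). The count of 27 was 18 without the neuron library of animal 3 and 11 after subtraction of the shared estimate.

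Glucose handling genes were mixed, with 3 of 20 tested higher, 12 lower and a median of -1.12. Slc2a5, the fructose transporter that among brain cells is typical of microglia, stood at 248, 475, 568 and 512 CPM in microglia, against 141, 18.1, 88.3 and 7.1 CPM in neurons (log2 fold change 3.17 ± 0.45, edgeR adjusted p 9.64e-07; 3.84 without the neuron library of animal 2). Hk2, the inducible hexokinase, stood at 983, 1138, 1115 and 951 CPM in microglia, against 158, 90.4, 187 and 139 CPM in neurons (log2 fold change 2.90 ± 0.29, edgeR adjusted p 3.89e-09). Hk1, the hexokinase of brain, was lower in microglia at 51.4 ± 28.5 CPM against 119 ± 69.4 CPM in neurons (-1.47 ± 0.36, edgeR adjusted p 0.00107), a call lost without animal 5 (-1.0, adjusted p 0.0649). Slc2a3, the neuronal glucose transporter, was lower (-1.14 ± 0.43, edgeR adjusted p 0.0308), but not with animal as a block (-1.14, adjusted p 0.0642) and not without any one of the microglia libraries of animals 3 and 5 or the neuron libraries of animals 3, 4 and 5 (folds of -1.12 to -0.99). Eno2, the neuronal enolase, stood at 4.86 ± 3.73 CPM in microglia and 97.4 ± 17.3 CPM in neurons (-4.67 ± 0.51), while Eno1, which has close copies in the genome, was not called (0.32 ± 0.53). Slc16a7, a transporter of lactate and pyruvate, was the third gene that rose (1.62 ± 0.54, edgeR adjusted p 0.0148), a call lost without the neuron library of animal 3 (1.54, adjusted p 0.0527). Aldoc, an aldolase known from astrocytes, was lower in microglia (-1.36 ± 0.40).

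Most ribosomal protein genes did not pass the test: of 41 tested, 2 were higher, 8 were lower and 31 were not called, with a median of -0.36. Rps14 and Rps21 stood at 854 ± 235 and 1119 ± 424 CPM in microglia and at 1190 ± 252 and 1272 ± 329 CPM in neurons (SD, n = 4). Those called higher, Rps13 (1.79 ± 0.60; 2.51 without the neuron library of animal 3, and 1.68 and not called without animal 5) and Rps25 (1.21 ± 0.49, edgeR adjusted p 0.0456), had means under 50 CPM; Rps25 was not called with animal as a block (1.15, adjusted p 0.0772), nor without any one of the microglia libraries of animals 2, 4 and 5 or the neuron libraries of animals 2, 3 and 4 (folds of 1.02 to 1.26). These genes have many processed copies, and the handling of shared reads is not given in the sources used here. The count of 8 was 4 without the neuron library of animal 5, 5 without the microglia library of animal 3 and 3 after subtraction of the shared estimate. Of 21 tested splicing and RNA-binding genes 6 were higher and 8 lower, with a median of -0.19. Rbfox3, the antigen NeuN, stood at 18.1 ± 15.6 CPM in microglia and 294 ± 112 CPM in neurons (-4.50 ± 0.40), and Celf4, a neuronal RNA-binding protein, at 38.7 ± 9.45 CPM in microglia and 660 ± 232 CPM in neurons (-4.14 ± 0.33). Ptbp1, which represses neuronal exons, rose by 1.05 ± 0.32, Mbnl1 by 1.09 ± 0.27 and Srsf5 by 1.22 ± 0.30, whereas Celf2 was not called (0.45 ± 0.25) although it was called without the microglia library of animal 2 (0.59).

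Early response and stress genes, which tissue dissociation is known to raise in microglia, were higher in microglia in 18 of 22 tested cases, with a median of 1.36. Zfp36, which degrades cytokine messages, stood at 931, 3735, 1926 and 3219 CPM in microglia, against 387, 258, 389 and 156 CPM in neurons (log2 fold change 3.07 ± 0.40, edgeR adjusted p 2.76e-07). Atf3, a stress-induced factor, stood at 160 ± 48.3 CPM in microglia and 10.3 ± 5.91 CPM in neurons (4.04 ± 0.48). Rhob, a small GTPase, and Ier5 rose by 2.50 ± 0.29 and 2.16 ± 0.27, and Junb, a subunit of AP-1, by 1.19 ± 0.33. Nr4a2, a nuclear receptor of neurons, was lower in microglia (-3.54 ± 0.57; -2.72 without animal 5), as was the chaperone Hsp90aa1 (-1.18 ± 0.25). After subtraction of the shared estimate 11 members were higher and 1 was lower. Both groups went through the same dissociation per the labels, and a response to it and a difference in resting level cannot be told apart.

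Transcripts of other cell types were present in both groups and mostly higher in neurons. The summed level of the 20 T and NK cell genes of the table was 165.5, 66.21, 59.8 and 51.21 CPM in microglia, against 2534, 2234, 2467 and 983.9 CPM in neurons; the 11 members that passed the filter were each called lower in microglia. Lck, the kinase of the T cell receptor, stood at 5.17, 1.7, 1.01 and 2.19 CPM in microglia, against 61.6, 183, 119 and 71 CPM in neurons (log2 fold change -5.79 ± 0.58, edgeR adjusted p 4.73e-09). Ms4a4b, of T cells, and Il2rb, a chain of the interleukin 2 receptor, stood at 28.5 ± 22.4 and 13 ± 12.1 CPM in microglia and at 745 ± 359 and 336 ± 107 CPM in neurons. Nkg7, a granule gene of cytotoxic lymphocytes, stood at 1.21 ± 1.61 CPM in microglia and 81.5 ± 26.1 CPM in neurons, and its fold of -5.85 was -6.49 without the microglia library of animal 3. Cd27 had 3 counts in all microglia and 67 in all neurons, a ratio of 72.6 in favour of neurons (exact 95% interval 23.8 to 361). Lymphocyte genes thus lay on the neuronal side of this comparison in all 4 animals. B cell genes, 7 in the table, were not tested for lack of counts and summed to 24.93 ± 7.491 CPM in microglia and 17.34 ± 14.55 CPM in neurons.

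On the microglial side, 10 of 12 border macrophage genes were tested and were called higher in microglia (median 2.97), and their sum was 1582 ± 197.9 CPM in microglia and 197.1 ± 80.21 CPM in neurons. Mrc1, the mannose receptor of perivascular macrophages, stood at 512, 272, 466 and 439 CPM in microglia, against 26.4, 33.6, 72.7 and 28.4 CPM in neurons (log2 fold change 3.40 ± 0.36, edgeR adjusted p 9.06e-09). F13a1 and Stab1, a coagulation factor chain and a scavenger receptor of such macrophages, rose by 2.83 ± 0.44 and 3.60 ± 0.45. Of 14 tested monocyte and neutrophil genes 12 were higher. S100a9, a calcium-binding protein abundant in neutrophils, stood at 1034, 1698, 5778 and 1463 CPM in microglia, against 352, 93, 467 and 160 CPM in neurons; its fold of 3.27 ± 0.54 was 2.49 without the microglia library of animal 4. S100a8, its partner, was also highest in that library, at 4257 CPM against 1244 to 1448 CPM in the other microglia. Retnlg, a neutrophil gene, had a fold of 2.76 ± 0.55, and 1.93 without that library. Lyz2, a lysozyme of myeloid cells, rose by 2.65 ± 0.43. Among genes of monocytes, Ly6c2 was lower in microglia (-1.82 ± 0.53, edgeR adjusted p 0.00554) and Ccr2 was not called, at 138 ± 36.6 CPM in microglia and 116 ± 32.4 CPM in neurons.

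Genes of astrocytes, oligodendrocytes, vessels and choroid plexus were lower in microglia than in neurons, by less than neuronal genes. The astrocyte list summed to 13950, 8300, 5834 and 6644 CPM in microglia, against 20440, 11540, 21780 and 9086 CPM in neurons, so that the groups overlap; 16 of its 20 genes were called lower (median -1.31), against 9 without the neuron library of animal 4 and 10 without the microglia library of animal 4. The oligodendrocyte list had 12 of 16 genes lower (median -1.65), with Mbp, of myelin, at -1.93 ± 0.34. Trf, which encodes transferrin, was higher in microglia, at 517, 577, 487 and 578 CPM against 150, 111, 296 and 81.7 CPM in neurons (1.79 ± 0.31, edgeR adjusted p 1.9e-05). Of 14 tested endothelial genes 11 were lower (median -1.52), such as Flt1, a receptor of vascular growth factor (-1.53 ± 0.40; no count left in either group after subtraction), and of 8 tested genes of pericytes and smooth muscle 7 were lower (median -2.12), such as Rgs5 (-1.98 ± 0.35). Ttr, the transthyretin of the choroid plexus, stood at 2069, 696, 466 and 593 CPM in microglia, against 7656, 2841, 2856 and 6749 CPM in neurons (log2 fold change -2.41 ± 0.47, edgeR adjusted p 8.61e-05; -3.08 without the microglia library of animal 2). After subtraction of the shared estimate 7 astrocyte genes were lower and 2 higher, 2 endothelial genes were lower and 1 higher, and 4 choroid plexus genes were lower.

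The size of the pituitary differences rested on 1 library. Prl, which encodes prolactin, stood at 114, 40.7, 25.3 and 54.9 CPM in microglia, against 202, 124, 161 and 14563 CPM in neurons, and Gh stood at 162 to 827 CPM in microglia, against 67487 CPM in the neurons of animal 5 and 491 to 1246 CPM in the other neurons. Their log2 fold changes of -6.17 ± 1.19 and -5.42 ± 1.19 were -1.58 (edgeR adjusted p 0.0856) and -1.14 (edgeR adjusted p 0.214) without that library. Chgb, the granin given above, was highest in the same library. With every library of animal 5 left out, Prl was still called lower in microglia (-1.64, edgeR adjusted p 0.0127) and Gh was not called (-1.15, edgeR adjusted p 0.0519). The input library of animal 5 was also high, with 5600 Gh and 610 Prl counts. The inputs of animals 2, 3 and 4 had 200 to 250 Gh and 38 to 44 Prl counts.

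**Figure D5:**
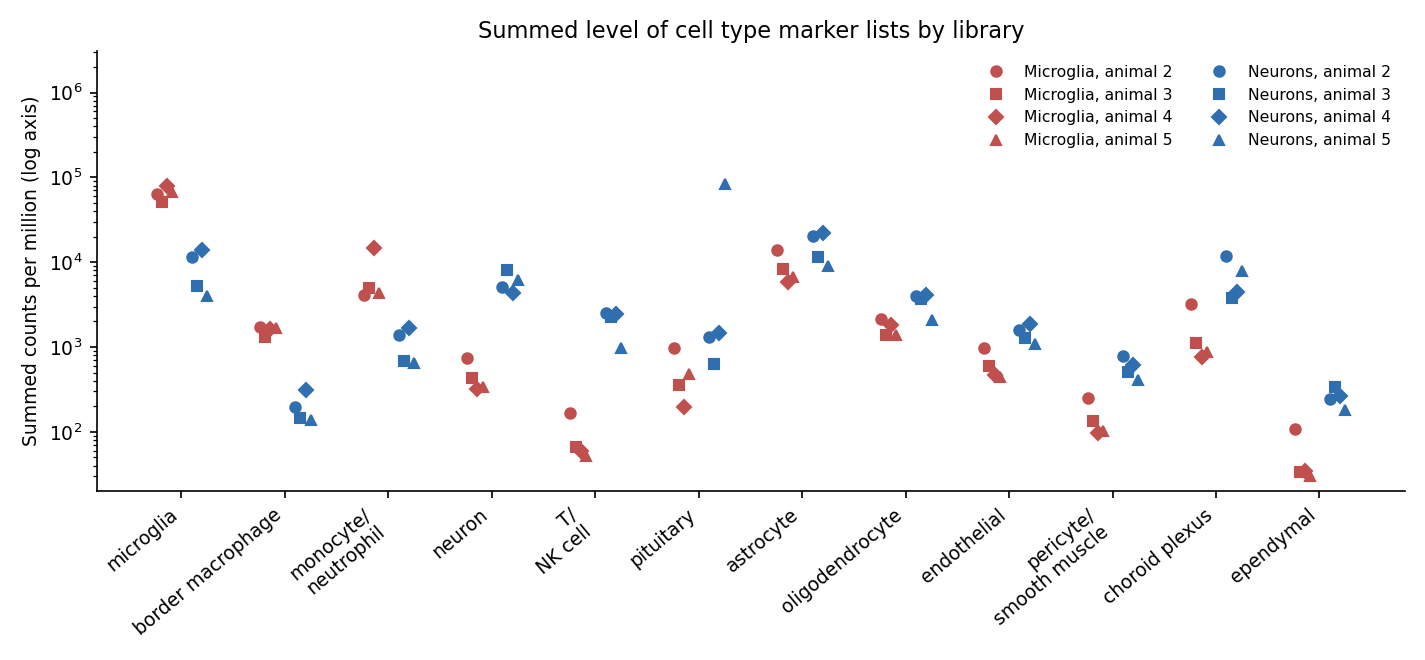
Summed CPM, on a log axis, of cell type marker lists in each library; red points are microglia and lie left of the blue neuron points, and shapes mark the animals. T and NK cell genes sum to 51.21 to 165.5 CPM in microglia and 983.9 to 2534 CPM in neurons, neutrophil and monocyte genes are highest in microglia of animal 4, and pituitary genes in neurons of animal 5.

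The marker lists also show what the neuron libraries shared with microglia. The 23 microglial genes of the table were all called higher in microglia (median 3.1), yet they summed to 64030, 51730, 79870 and 67720 CPM in microglia and to 11400, 5281, 13880 and 3957 CPM in neurons. In astrocyte and input libraries the same genes summed to 6768 ± 3880 and 12760 ± 951.8 CPM (SD, n = 4). The 24 neuronal genes, all called lower in microglia (median -4.14), summed to 739.6, 434.6, 321.3 and 336.5 CPM in microglia, against 5043, 8078, 4289 and 6113 CPM in neurons. Ratios between the groups were thus larger for neuronal than for microglial markers, and the neuron libraries of animals 2 and 4, which were the smallest, held the most microglial transcripts. How much of those came from microglia in the Thy1 gate was not tested.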

How the data were processed

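RNA of cells sorted from 4 mice was read as 3' ends in 65 bp single-end reads on 1 lane, per the labels. The labels' protocols give a kit with molecular identifiers for removing PCR duplicates. The authors deposited counts per gene, and every count of 100 or more is given to 2 significant digits, an error of up to 5%. The deposited library totals (signal) and scaling factors (ratio near 1) served only an alternative. The submitters' processing notes name GRCm38.p6 as the build and, with no role given, edgeR, STAR, Subread 1.6.2 and featureCounts.

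Counts were tested with edgeR 4.0.16 in R 4.3.3 (quasi-likelihood F-test, filterByExpr by group, TMM scaling, 1 mean for each of 4 groups, all 16 libraries, Benjamini-Hochberg adjustment, threshold 0.05). The common dispersion was 0.07327. Standard errors were taken as the absolute log2 fold change over the square root of the F statistic. They are approximate where a group had few counts. The fit was tested on simulated data: with 8118 genes of this comparison, the test found 89.2% of the changes of 4-fold and 24.5% of those of 2-fold, and made 3 false calls. The simulation changed 200 genes drawn from the more abundant ones, gave every gene the common dispersion and drew libraries independently. It therefore does not measure how many calls in the real data are false.

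Genes were named by a rule: gate and marker genes, the 12 largest changes in each direction where libraries did not overlap and the higher group averaged 50 CPM or more, the 4 most abundant members of each list, and the pairs. Not every gene named by it is reported here. Members and lists were chosen with earlier results of these data known. Animal numbers pair the libraries per the labels, although deviations from group means correlated by only -0.007 to 0.054 within an animal; the block is an alternative. Other alternatives were RLE scaling, totals only, a 2-fold change as the null, no filter, only the 8 libraries, DESeq2 1.42.0, thinning, subtraction of a shared estimate (0.705% of the pooled counts of each gene), omission of animal 5 or of 1 library, and, chosen after seeing the data, the deposited totals and factors and omission of mitochondrially encoded genes. Intervals and count limits cover counting error only.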

Additional observations from a re-analysis of the deposited data

Results flagged for a closer look

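Of 402 levels examined (named genes and list sums in the 4 libraries of a group), 41 (10.2%) had 1 library whose gap to the next passed Dixon's 95% critical value, where chance gives about 1 in 20. The microglia of animal 2, the smallest microglia library, held more of them than any other library. That library was high for neuronal genes: Syt1 stood at 103 CPM, Cx3cl1 at 31 CPM, Camk2n1 at 362 CPM, Nrgn at 62.1 CPM, Slc32a1 at 25.9 CPM, Penk at 51.7 CPM, Kcna2 at 62.1 CPM, Map1b at 145 CPM, Nckap1 at 36.2 CPM and Rbfox3 at 41.4 CPM. It was also high for Cxcl12 at 72.4 CPM, Ms4a4b at 62.1 CPM, Il2rb at 31 CPM, Ttr at 2069 CPM and Ptbp1 at 315 CPM, and for the summed choroid plexus (3191 CPM), T and NK cell (166 CPM) and ependymal (109 CPM) lists. Celf2 was low there, at 621 CPM against 902 to 951 CPM in the other microglia.

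In the microglia of animal 4, S100a8 at 4257 CPM, S100a9 at 5778 CPM and the monocyte and neutrophil list at 14690 CPM stood above the other microglia, as did Nckap1l at 639 CPM and Shank1 at 5.07 CPM. All microglial counts of Dnm1 came from animal 3, at 5.09 CPM.

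In the neurons of animal 5, Prl at 14563 CPM, Gh at 67487 CPM and the pituitary list at 83560 CPM stood apart, with Chgb at 2593 CPM and Cpe at 2380 CPM, while Ccr2 was low at 67.5 CPM and Celf2 low at 391 CPM. In the neurons of animal 2, H2-Eb1 at 88 CPM and Cd200r1 at 44 CPM were high, and Thy1 at 194 CPM, Cotl1 at 264 CPM and Map1b at 352 CPM were low. In the neurons of animal 4, Pecam1 at 62.3 CPM, Icam5 at 130 CPM and Mrc1 at 72.7 CPM were high, and in those of animal 3, Celf4 at 1007 CPM. Why these libraries stand apart was not tested.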

How the results depend on the processing

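The counts of 1834 genes higher and 2217 lower in microglia stayed within 1.5 times in most of the 20 alternatives. The exceptions were the test against a 2-fold change (808 higher and 1308 lower), microglia and neurons fitted alone (1122 and 1260 of 6030 genes tested), thinning to the smallest total (833 and 850 of 3812 genes tested) and, for higher genes, subtraction of the shared estimate (1215). Without 1 library the counts were 1581 to 2089 higher and 1956 to 2533 lower, and with animal as a replicate block 1708 and 2089. RLE scaling moved the median of all genes to -0.122 and DESeq2 moved it to -0.118. Of the 167 named genes called, the replicate block lost Slc2a3, Rps25 and Cd200r1 and changed no other call. Subtraction lost 22 of the 164 still tested (Slc1a2, Ugt8a, Entpd2, B2m, Tmsb4x, Cotl1, Arpc1b, Sox4, Atp5g3, Aldoc, Rps13, Rps25, Junb, Hsp90aa1, Srsf5, Mbnl1, Flt1, Ptpn11, Kif5b, Map4, Cd200r1 and Ptbp1). In 18 of these 22 the fold was farther from 0 than before, as for Slc1a2 (-2.16), Aldoc (-2.82) and Cd200r1 (2.15), in 2 it was nearer to 0 (Rps13 at 1.56 and Junb at 1.18), and for Ugt8a and Flt1 no count was left in either group. Why calls were lost was not tested further. Signs turned for Pecam1 (1.89) and Cd93 (0.66) after subtraction and for Ccr2 after thinning (-0.05) and subtraction (-0.02); none of the 3 was called in either fit. Depth limits genes with few counts, and 2-fold changes were mostly missed in the simulated data.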
